A study of Mus musculus with 21 samples.

Results

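The genes described here are 9 genes of the machinery that releases paused RNA polymerase II into productive elongation: Cdk9, Ccnt1, Ccnt2, Hexim1, Larp7, Mepce, Brd2, Cdk12 and Polr2a. They were chosen by name, as the 9 entries with these symbols among the 20900 genes of the deposited expression table, and all 9 were among the 14666 genes that passed the filter on low values and were tested. Expression was measured by poly(A) RNA-seq in E14 cells, a mouse embryonic stem cell (ESC) line of 129 strain background, grown in serum with leukaemia inhibitory factor (LIF). Inhibitors of RNA polymerase I were given at 1 µM, either BMH-21 or CX-5461, for 2, 4 or 8 h, and the control was harvested at 0 h. With 3 libraries in each of 7 groups there were 21 libraries. The labels name no vehicle and no later untreated time point, so time in fresh medium and inhibitor cannot be told apart, and they do not say whether replicates came from separate cultures. The p-values therefore rest on the spread between these libraries, which may be technical. For the deposited values this spread was estimated mostly from all tested genes and less from each gene itself.

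P-TEFb is a kinase made of Cdk9 and a cyclin T, either Ccnt1 or Ccnt2, and it phosphorylates the C-terminal domain of RNA polymerase II and the factors that hold the polymerase paused near promoters. A large share of P-TEFb is kept inactive by the 7SK ribonucleoprotein, in which Larp7 and Mepce bind and protect the 7SK RNA and Hexim1 inhibits the kinase. When transcription is disturbed P-TEFb is released from this complex, and Hexim1 is known as a gene whose own transcription responds to active P-TEFb. Brd2 belongs to the BET family of acetyl-lysine readers, Cdk12 is another kinase of the C-terminal domain, known for its role in the elongation of long genes, and Polr2a encodes the largest subunit of RNA polymerase II, which carries that domain.

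Each library held between 46604397 and 62812641 reads in the table, and the 9 genes had between 1098 reads (Ccnt1) and 61852 reads (Polr2a) in a library, so counting error was small beside the spread between libraries. The deposited values are log2 CPM (reads relative to the library total) after a scaling factor per library, which ran from 0.832 to 1.375, whereas median-ratio factors computed from the same reads ran from 0.941 to 1.107. This scaling moves every gene together: subtracting each library's median removed a shift of -0.08, -0.15 and -0.21 (log2) at 2, 4 and 8 h of BMH-21, and of -0.15, -0.16 and 0.22 at 2, 4 and 8 h of CX-5461. Results are therefore given on the deposited scale and on the centred scale, in which the library median is subtracted. Beside these stand median-ratio size factors and quantile normalization. A gene is called higher or lower at an adjusted p under 0.05 (limma, Benjamini-Hochberg over the 14666 genes). BMH-21 8 h replicate 2 had the largest deposited factor and stood apart from its group for Ccnt1, Ccnt2, Cdk12 and Polr2a, so values without it are given where they end a call or move it by over 1.5 times. All 8 ESC markers that were examined were tested and abundant: their summed level was 5692 to 5743 CPM in the control libraries and 3483 to 3952 at 8 h of BMH-21.

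Hexim1 rose at 2 h of BMH-21 treatment, and again when CX-5461 had been present for 8 h, and both calls held on all 4 scalings. Ccnt2 was called lower with BMH-21 at 2, 4 and 8 h on all 4 scalings. Mepce and Cdk12 were called lower at 4 h with either inhibitor, and at 8 h with BMH-21, again on all 4 scalings, and Polr2a was called higher at 4 h of BMH-21. In the 6 comparisons with control, 17 of the 54 values (9 genes in each comparison) were called in the same direction on every scaling. The rest depended on the scaling or were not called. The same count over all tested genes was not made, so the 17 are not set against a background. The shares of all genes given below are for the deposited and centred scales. All 6 comparisons use the same 3 control libraries.

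The promoters of 3 of these genes are shown because their RNAs took different courses: Hexim1 rose early with BMH-21, Ccnt2 fell, and Polr2a rose at 4 h. Of the 9 genes, 8 matched an entry in the RefSeq promoter table (GRCm38.p6), and Mepce is named only. The window searched was the 250 bases before the RefSeq start, and the part printed is what lies outside exons annotated in GENCODE M21, 5′ to 3′ on the gene's strand. Several short motifs were searched on both strands. Capitals mark any match, and in Ccnt2 a CCAAT box on the reverse strand and a GC box overlap in 1 run of capitals. Hexim1 is shown for chr11:103116075-103116230 (plus strand), Ccnt2 for chr1:127773914-127774163 (plus strand) and Polr2a for chr11:69758638-69758883 (minus strand).
Hexim1: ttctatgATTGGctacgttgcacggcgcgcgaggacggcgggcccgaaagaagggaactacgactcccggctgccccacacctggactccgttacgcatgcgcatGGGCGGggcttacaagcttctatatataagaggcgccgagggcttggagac
Ccnt2: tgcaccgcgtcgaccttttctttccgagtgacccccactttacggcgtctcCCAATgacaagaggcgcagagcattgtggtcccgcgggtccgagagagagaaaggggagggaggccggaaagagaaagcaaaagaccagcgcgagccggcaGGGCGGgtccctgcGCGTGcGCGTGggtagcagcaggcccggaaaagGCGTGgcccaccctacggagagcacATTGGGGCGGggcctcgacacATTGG
Polr2a: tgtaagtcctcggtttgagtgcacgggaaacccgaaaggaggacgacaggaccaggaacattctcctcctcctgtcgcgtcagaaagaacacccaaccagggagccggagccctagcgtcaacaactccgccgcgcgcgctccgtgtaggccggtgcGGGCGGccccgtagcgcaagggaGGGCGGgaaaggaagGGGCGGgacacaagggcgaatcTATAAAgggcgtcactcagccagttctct
The Hexim1 window held 1 GC box and 1 CCAAT box, the Ccnt2 window 2 GC boxes, 3 CCAAT boxes and 3 GCGTG cores, and the Polr2a window 3 GC boxes and 1 TATA box. The shares below are of the 32851 promoter windows of the same length in the table. The GC box, GGGCGG, was found in 32.7% of them. The CCAAT box, with the letters of its name, was found in 33.8%. The TATA box was searched as TATAAA and found in 12.4%, and the aryl hydrocarbon receptor core as GCGTG in 28.2%. An AP-1 site, TGANTCA, was in 6.75%. The E box was searched as CACGTG and found in 6.02%. The cAMP response element, TGACGTCA, was in 1.55%. Among the members' windows the cAMP response element was found for Larp7 alone, and no AP-1 site or E box was found. A match describes letters in the window and not binding. Only the letters given were searched, so a window without a match may hold another form of the motif. The Hexim1 sequence holds tatataa, which the search for TATAAA did not cover.

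After 2 h of BMH-21, 1 of the 9 genes was called higher (Hexim1) and 2 lower (Cdk9 and Ccnt2), against 8.48% of all tested genes higher and 11.2% lower. On the centred scale 4 were higher (Hexim1, Mepce, Brd2 and Polr2a) and the same 2 lower, against 18.6% and 17.5% of all genes. The median change of the 9 genes was 0.05 on the deposited scale, and that of all genes was -0.07.

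At 4 h of BMH-21, 1 gene was called higher (Polr2a) and 3 lower (Ccnt2, Mepce and Cdk12), where 22.1% of all genes were higher and 44.9% lower. Centring added Larp7 to the higher genes and left the 3 lower genes, beside 32.2% and 41.5% of all genes. The share of members called lower was thus near or under the background.

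At 8 h of BMH-21, 8 of 9 genes were called lower and none higher, Hexim1 being the gene that was not called. The background was 24.5% of all genes higher and 56.9% lower, so a large share of the transcriptome moved the same way. After centring 6 were lower (Cdk9, Ccnt2, Larp7, Mepce, Brd2 and Cdk12), against 33.3% of genes higher and 51.3% lower. The median of the 9 genes was -0.64 on the deposited scale, beside -0.40 for all genes, and -0.42 on the centred scale, beside -0.19. Without BMH-21 8 h replicate 2 the deposited count was 6, the calls of Ccnt1 and Polr2a being lost.

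After 2 h of CX-5461 Ccnt2 was the 1 gene called, lower, where 7.45% of all genes were higher and 20.5% lower. Centring kept that call and added Hexim1 and Brd2 as higher, against 15.8% and 17.8% of all genes.

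At 4 h of CX-5461, 6 genes were called lower (Hexim1, Ccnt2, Larp7, Mepce, Brd2 and Cdk12) and none higher, beside 19.8% of all genes higher and 51.2% lower. The same 6 were lower after centring and Ccnt1 and Polr2a were higher, against 28.5% and 45.7% of all genes. The count of lower genes was 3 without CX-5461 4 h replicate 1 or without replicate 3, and 2 of the 6, Mepce and Cdk12, were called on all 4 scalings.

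At 8 h of CX-5461, Hexim1 was called higher and Larp7 and Cdk12 lower, where the deposited scale gave 35.1% of all genes higher and 14.3% lower. Centring turned that background to 29.3% higher and 44.7% lower, and 8 of the 9 genes were then called lower, with Hexim1 higher. The number of members called lower at this time therefore rests on the scaling, from 2 to 8.

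**Figure D1:**
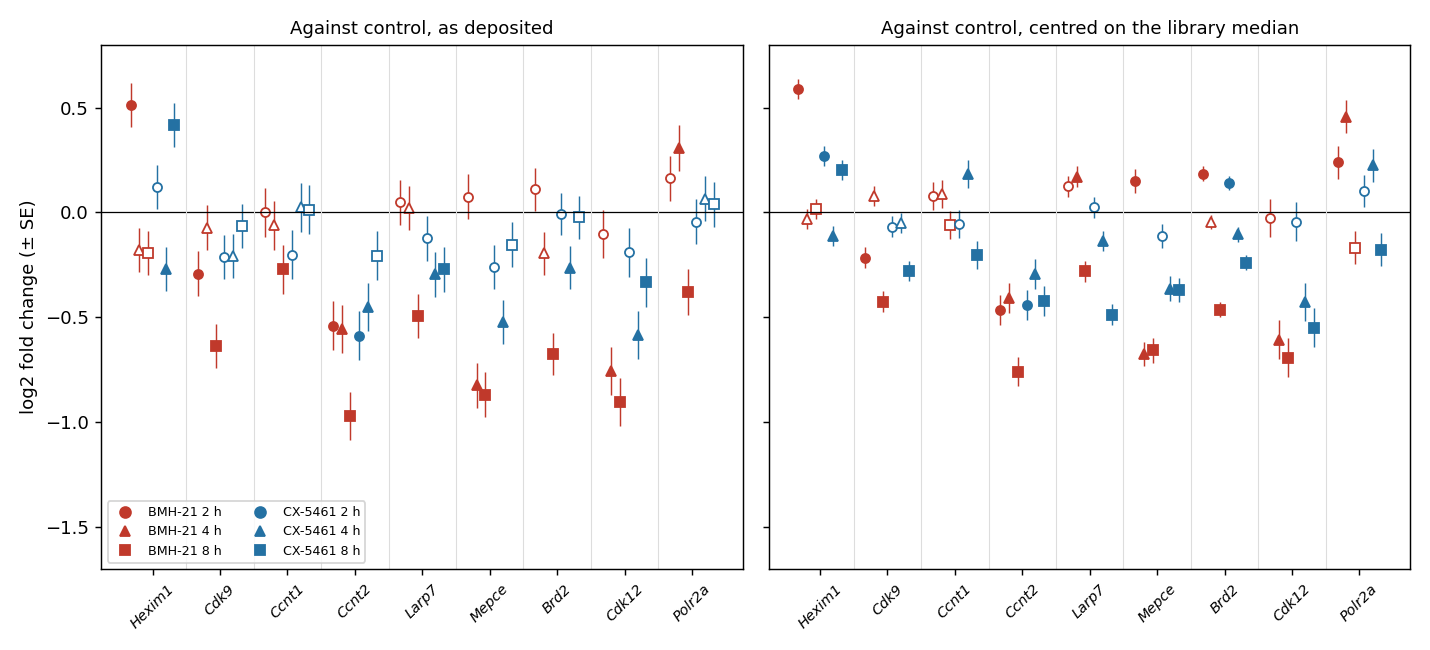
Log2 fold change against the control (± SE) of each of the 9 genes, on the deposited scale (left) and after centring each library on its median (right), with circles, triangles and squares for 2, 4 and 8 h and filled symbols for an adjusted p under 0.05. Hexim1 is at 0.51 and Ccnt2 at -0.54 after 2 h of BMH-21 on the left, and every Ccnt2 symbol on the right is filled and below 0.

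Cdk9, the catalytic subunit of P-TEFb (chr2:32705784-32713076, minus strand, 7 exons in its longest coding transcript), had deposited log2 values of 7.12, 7.15 and 6.91 in the control. With BMH-21 it had 6.70, 6.84 and 6.76 at 2 h, 7.11, 6.87 and 6.98 at 4 h, and 6.44, 6.39 and 6.44 at 8 h. All libraries at 2 h and 8 h lay below the lowest control library, while those at 4 h overlapped the control. Cdk9 fell by 0.29 at 2 h (SE 0.11, adjusted p = 0.037) and by 0.64 at 8 h (adjusted p = 3.7e-08), and both calls held on the 4 scalings. The 2 h call was lost in 4 of 6 fits that left out 1 library, with adjusted p up to 0.19. With CX-5461 it had 6.95, 6.71 and 6.88 at 2 h, 6.76, 6.99 and 6.80 at 4 h, and 7.11, 6.89 and 6.99 at 8 h. These overlapped the control at each time and none was called on the deposited scale. The 8 h difference was -0.06 there and -0.28 after centring (adjusted p = 2.0e-05). Exons of 2 microRNA genes, Mir2861 and Mir3960, lie within Cdk9 exons on the same strand and cover 1.78% and 1.58% of its exon bases.

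Ccnt1 and Ccnt2 encode the alternative cyclins of P-TEFb, and their RNAs did not move alike. Ccnt2 (chr1:127774164-127808061, plus strand, 9 exons) was highest in the control, with deposited log2 values of 6.63, 6.59 and 6.47. BMH-21 gave 5.79, 6.19 and 6.09 at 2 h, 6.23, 5.97 and 5.82 at 4 h, and 5.80, 5.20 and 5.78 at 8 h. Under CX-5461 the values were 6.12, 5.92 and 5.88 at 2 h, 5.94, 6.33 and 6.06 at 4 h, and 6.40, 6.35 and 6.32 at 8 h. All 18 treated libraries lay below the lowest control library, on the deposited scale and after centring. The fall with BMH-21 was -0.54 at 2 h (SE 0.12, adjusted p = 1.3e-04), -0.56 at 4 h (adjusted p = 1.3e-05) and -0.97 at 8 h (adjusted p = 3.4e-13), a level 0.510 of the control. Without BMH-21 8 h replicate 2 the last value was -0.77 (adjusted p = 5.0e-11). CX-5461 gave -0.59 at 2 h (adjusted p = 2.6e-05) and -0.45 at 4 h (adjusted p = 3.6e-04), and -0.21 at 8 h, which was not called (adjusted p = 0.14). Centred values at 8 h were -0.76 with BMH-21 and -0.42 with CX-5461 (adjusted p = 7.2e-10 and 1.3e-05), and the 4 h CX-5461 value was -0.13 (adjusted p = 0.11) under quantile normalization.

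Ccnt1 (chr15:98538689-98570923, minus strand, 10 exons) ranged from 4.18 to 5.02 on the deposited scale over all 21 libraries, and its 7 group means spanned 0.30, the smallest span of the 9 genes. The control libraries had 4.85, 4.84 and 4.74, and those at 8 h of BMH-21 had 4.70, 4.18 and 4.73. That was the single deposited call, -0.27 (SE 0.12, adjusted p = 0.027). It was -0.09 (adjusted p = 0.49) without BMH-21 8 h replicate 2, the library at 4.18, the call was also lost without control replicate 1 or 2 (adjusted p = 0.074 and 0.071), and it was -0.06 (adjusted p = 0.41) after centring. Centring gave 0.18 at 4 h of CX-5461 (adjusted p = 0.018) and -0.20 at 8 h (adjusted p = 0.0093). An antisense gene, 9330020H09Rik, covers 7.59% of the Ccnt1 exon bases, and whether the counting used strand is not given in the sources used here.

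The ratio of 2 genes within a library does not depend on a scaling factor for that library, and it is used here for the difference within a library between libraries of treated and control cells, not for levels between genes. The log2 ratio of Ccnt1 to Ccnt2 was -1.79 to -1.73 in the 3 control libraries. It was -1.28 to -1.13 at 2 h, -1.31 to -1.23 at 4 h and -1.10 to -1.02 at 8 h of BMH-21. With CX-5461 it was -1.42 to -1.31 at 2 h, -1.31 to -1.22 at 4 h and -1.59 to -1.49 at 8 h. All 18 treated libraries lay above all 3 control libraries. At 2, 4 and 8 h the mean exceeded the control mean by 0.54, 0.49 and 0.70 in BMH-21 libraries and by 0.39, 0.48 and 0.22 in CX-5461 libraries, that is 1.16-fold to 1.62-fold, with SDs of 0.03 in the control and 0.04 to 0.07 in the treated groups (n = 3). Quantile normalization is not a factor per library and changes such ratios: under it the changes at 8 h of BMH-21 were -0.0094 for Ccnt1 and -0.57 for Ccnt2.

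**Figure D2:**
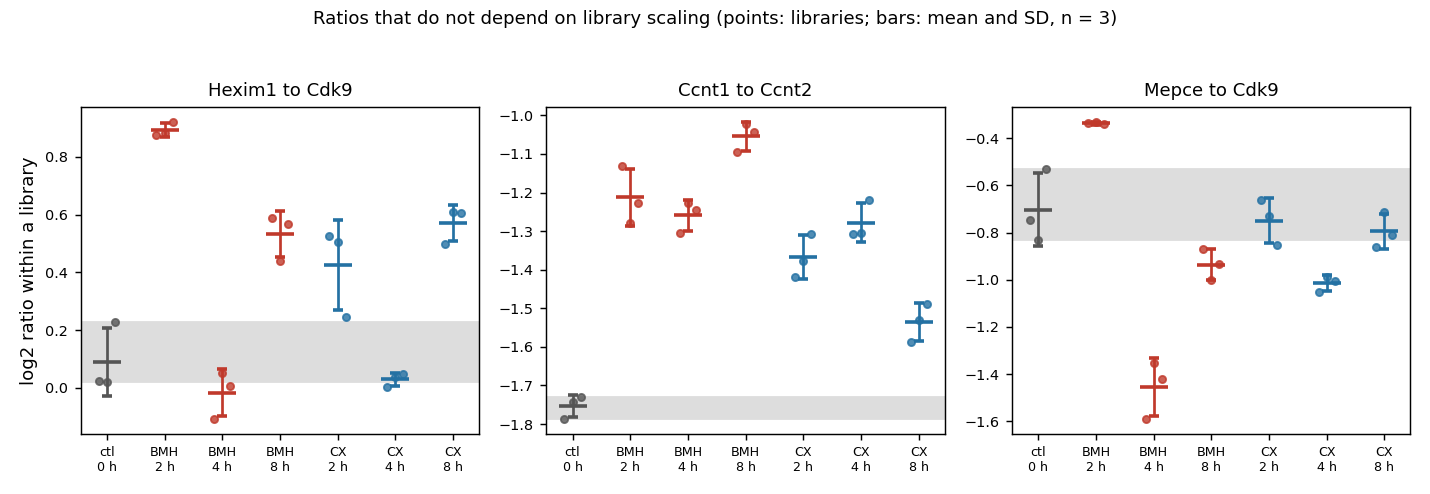
Log2 ratios of 2 genes within each library (points), with mean and SD (n = 3), and the range of the control shaded. The ratio of Ccnt1 to Ccnt2 lies above the control range in all 18 treated libraries, that of Hexim1 to Cdk9 does so at 2 h and 8 h but not at 4 h of either inhibitor, and that of Mepce to Cdk9 is lowest at 4 h of BMH-21.

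Hexim1, the protein inhibitor of P-TEFb, is a gene of 1 exon (chr11:103116231-103119725, plus strand), and its course was not steady. The control libraries had deposited log2 values of 7.15, 7.17 and 7.13. BMH-21 gave 7.58, 7.73 and 7.68 at 2 h, then 7.0, 6.92 and 6.99 at 4 h and 7.03, 6.83 and 7.01 at 8 h. All 3 libraries at 2 h were above the control, and all 6 at 4 and 8 h were below it. CX-5461 gave 7.48, 7.21 and 7.13 at 2 h, 6.76, 7.03 and 6.85 at 4 h, and 7.61, 7.50 and 7.60 at 8 h, so that the 8 h libraries were above and the 4 h libraries below all controls.

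At 2 h of BMH-21 Hexim1 rose by 0.51 (SE 0.10, adjusted p = 5.0e-05), 1.43-fold, and 0.59 after centring (adjusted p = 9.2e-10). It kept that call in all 6 fits without 1 library, with values from 0.48 to 0.56. Later differences with BMH-21 were -0.18 at 4 h (adjusted p = 0.12) and -0.19 at 8 h (adjusted p = 0.078), which were not called. The 8 h value turned to 0.02 after centring, to 0.16 (adjusted p = 0.0035) with median-ratio factors and to 0.31 (adjusted p = 2.2e-06) with quantile normalization. CX-5461 gave 0.12 at 2 h (adjusted p = 0.35), which was 0.27 (adjusted p = 1.2e-04) after centring. At 4 h Hexim1 was called lower, -0.27 (adjusted p = 0.017), a value that was -0.02 with median-ratio factors (adjusted p = 0.72) and 0.06 with quantile normalization, and the deposited call was lost without CX-5461 4 h replicate 1 or 3 (adjusted p = 0.11 and 0.056). At 8 h of CX-5461 it was 0.42 higher (adjusted p = 3.8e-04), 1.34-fold, and 0.20 after centring (adjusted p = 7.3e-04), and all 6 fits without 1 library kept the call. From 4 to 8 h of CX-5461 the gene rose by 0.69 (adjusted p = 1.2e-08), or by 0.31 after centring.

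Relative to Cdk9 in the same library, Hexim1 was higher than in every control library at 2 and 8 h of either inhibitor. The log2 ratio of Hexim1 to Cdk9 was 0.02 to 0.23 in the control, 0.88 to 0.92 at 2 h and 0.44 to 0.59 at 8 h of BMH-21, and 0.25 to 0.53 at 2 h and 0.50 to 0.61 at 8 h of CX-5461. The 4 h libraries ran from -0.11 to 0.05 under BMH-21 and from 0.0024 to 0.05 under CX-5461, within the lower part of the control range or below it. The mean differences from the control were 0.80, -0.11 and 0.44 under BMH-21, and under CX-5461 they were 0.34, -0.06 and 0.48. Hexim1 relative to Larp7 took a like course, with differences of 0.46, -0.20 and 0.30 under BMH-21, and of 0.24, 0.02 and 0.69 under CX-5461. Relative to Polr2a the differences were 0.35, -0.49 and 0.18 under BMH-21 (SD 0.23 at 8 h), and 0.17, -0.34 and 0.38 under CX-5461. As deposited, Hexim1 itself was not called at 8 h of BMH-21 (-0.19), while Cdk9 (-0.64), Larp7 and Polr2a were called lower there.

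Mepce caps the 5′ end of 7SK RNA and stays in the complex (chr5:137781906-137787655, minus strand, 4 exons). Its control values on the deposited scale were 6.38, 6.32 and 6.38. BMH-21 gave 6.36, 6.51 and 6.42 at 2 h, 5.52, 5.52 and 5.57 at 4 h, and 5.57, 5.39 and 5.51 at 8 h. The 2 h libraries overlapped the control, and those at 4 and 8 h lay well below it. Mepce fell by 0.82 at 4 h (SE 0.11, adjusted p = 2.0e-11) and by 0.87 at 8 h (adjusted p = 1.2e-12), to 0.565 and 0.547 of the control level. CX-5461 gave 6.29, 5.98 and 6.03 at 2 h, 5.70, 6.01 and 5.80 at 4 h, and 6.25, 6.18 and 6.18 at 8 h. On the deposited scale all of these lay below the lowest control library. There the 4 h difference of -0.52 was called (adjusted p = 9.5e-06) while those at 2 and 8 h were not. After centring the 2 h libraries overlapped the control. The 8 h difference was -0.15 (adjusted p = 0.23) on the deposited scale and -0.37 (adjusted p = 5.4e-06) after centring. The log2 ratio of Mepce to Cdk9 was -0.83 to -0.53 in the control. It was -0.34 to -0.33 at 2 h of BMH-21, above every control library, and -1.59 to -1.35 at 4 h, below them. The mean differences from the control at 2, 4 and 8 h were 0.37, -0.75 and -0.23 under BMH-21. Under CX-5461 they were -0.05, -0.31 and -0.09.

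Larp7, which binds the 3′ end of 7SK RNA (chr3:127536714-127553349, minus strand, 13 exons), changed late. Control libraries had 7.23, 7.26 and 6.98 on the deposited scale and those at 8 h of BMH-21 had 6.71, 6.61 and 6.67. The 2 and 4 h BMH-21 libraries, from 7.09 to 7.28, overlapped the control. The 8 h difference was -0.49 (SE 0.11, adjusted p = 1.6e-05), -0.28 after centring (adjusted p = 1.7e-05) and -0.0034 with quantile normalization (adjusted p = 0.95). With CX-5461 Larp7 was -0.29 at 4 h (adjusted p = 0.011), which was -0.04 with median-ratio factors and 0.04 with quantile normalization, and whose call was lost in 4 of 6 fits without 1 library. At 8 h it was -0.27 (adjusted p = 0.027), -0.49 after centring (adjusted p = 7.5e-09), and called on all 4 scalings, though the deposited call was lost in 4 of 6 fits without 1 library (adjusted p up to 0.135). Centring gave 0.17 at 4 h of BMH-21 (adjusted p = 0.0038), where the deposited difference was 0.02.

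**Figure D3:**
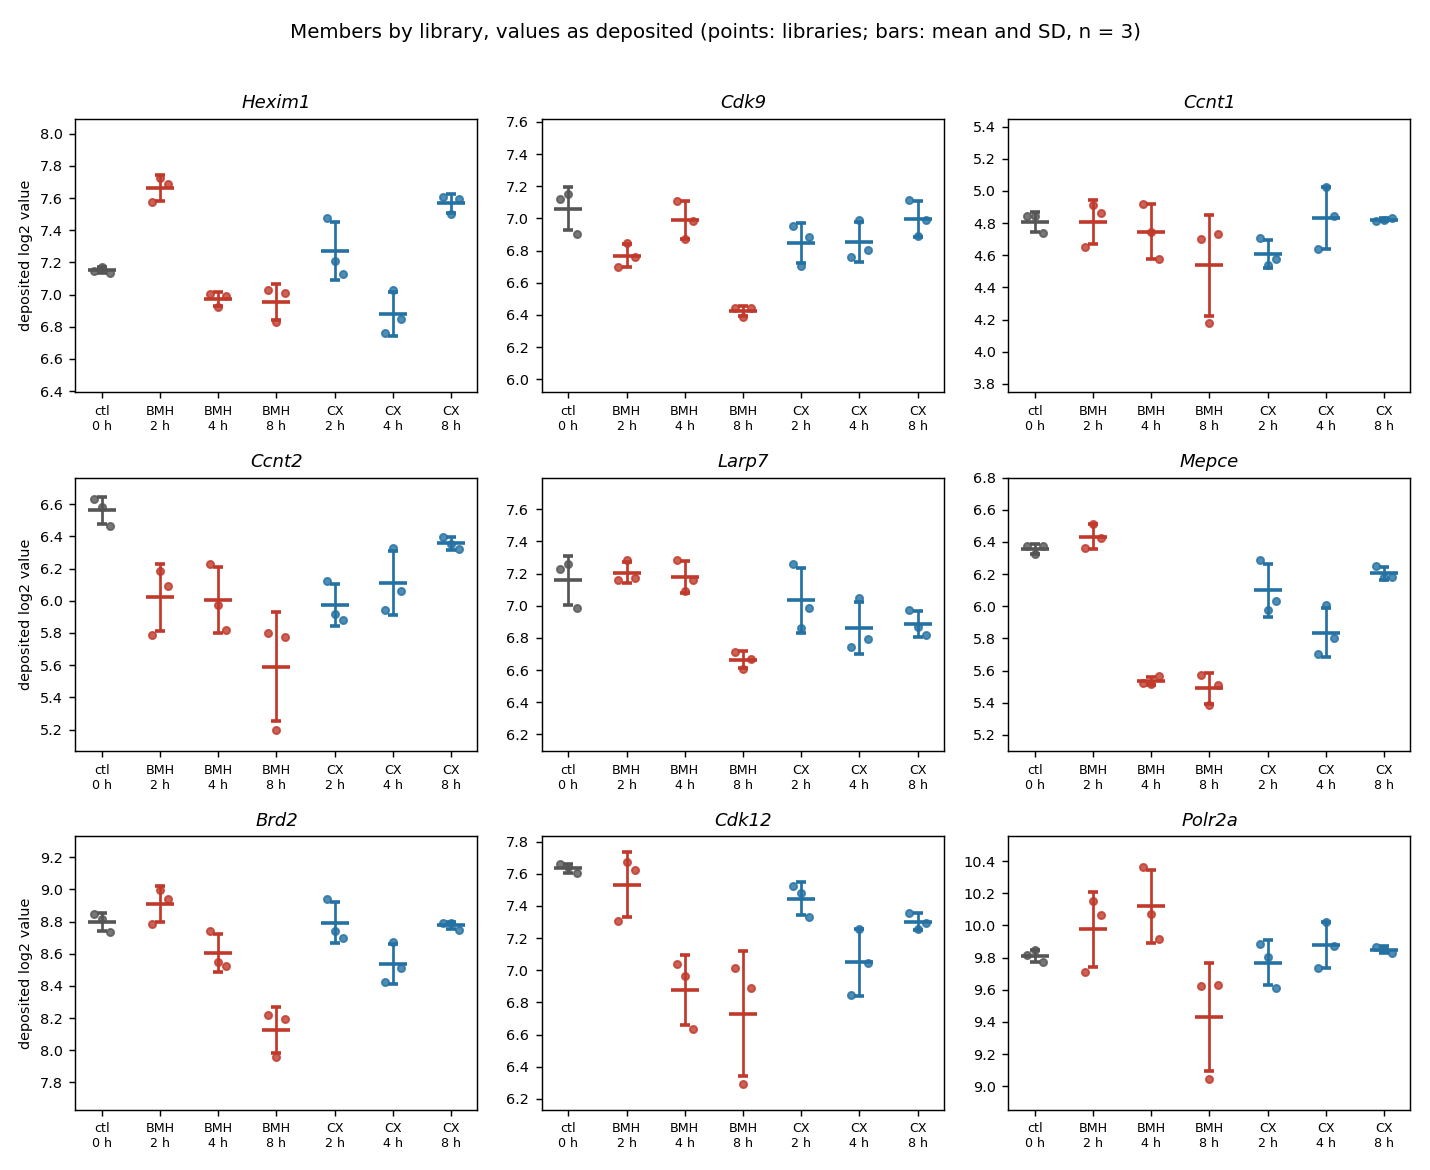
Deposited log2 values of the 9 genes in each of the 21 libraries (points), with group mean and SD (n = 3); the axes differ in their start but span the same range. Hexim1 is highest at 2 h of BMH-21, Ccnt2 is highest in the control, and 1 library at 8 h of BMH-21 lies low for Ccnt1, Ccnt2, Cdk12 and Polr2a.

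Brd2, a BET protein that reads acetylated histones (chr17:34112023-34122634, minus strand, 13 exons), had deposited values of 8.85, 8.81 and 8.74 in the control. At 8 h of BMH-21 it had 8.22, 7.96 and 8.19, all below the control. That difference of -0.67 (SE 0.10, adjusted p = 2.0e-09) was -0.46 after centring (adjusted p = 7.1e-12) and 0.02 (adjusted p = 0.65) with quantile normalization. At 4 h of CX-5461 Brd2 was -0.26 (adjusted p = 0.017) as deposited, -0.01 with median-ratio factors and 0.17 (adjusted p = 6.9e-05) with quantile normalization, and the deposited call was lost in 3 of 6 fits without 1 library. After centring Brd2 was higher at 2 h with both inhibitors, 0.19 in BMH-21 cells and 0.14 in CX-5461 cells (adjusted p = 1.2e-04 and 0.0022), while the deposited differences of 0.11 and -0.01 were not called. Opposite-strand exons of CR974462.3 and H2-DMa cover 5.18% and 4.60% of the Brd2 exon bases.

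Cdk12, the kinase that acts with cyclin K on the C-terminal domain (chr11:98203059-98278504, plus strand, 14 exons), had 7.66, 7.64 and 7.60 in the control on the deposited scale. BMH-21 gave 7.30, 7.67 and 7.62 at 2 h, 7.04, 6.97 and 6.63 at 4 h, and 7.01, 6.29 and 6.89 at 8 h. With CX-5461 the values were 7.52, 7.48 and 7.33 at 2 h, 6.84, 7.26 and 7.04 at 4 h, and 7.36, 7.25 and 7.29 at 8 h. All 12 libraries at 4 and 8 h lay below the control. Cdk12 fell by 0.76 at 4 h (SE 0.11, adjusted p = 4.9e-09) and by 0.90 at 8 h of BMH-21 (adjusted p = 4.4e-12), and the latter was -0.68 (adjusted p = 3.2e-09) without BMH-21 8 h replicate 2. CX-5461 gave -0.59 at 4 h (adjusted p = 3.9e-06) and -0.33 at 8 h (adjusted p = 0.011). These 4 calls held on all 4 scalings, and no call was made at 2 h. Cdk12 had the largest spread within groups of the 9 genes, a residual SD of 0.20 beside a moderated SD of 0.14.

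Polr2a (chr11:69733997-69758637, minus strand, 29 exons) had the most reads of the 9 genes and moved both ways with BMH-21. The control libraries had 9.81, 9.85 and 9.77 on the deposited scale. BMH-21 gave 9.71, 10.15 and 10.07 at 2 h, 10.36, 10.07 and 9.92 at 4 h, and 9.62, 9.04 and 9.63 at 8 h. The 4 h libraries were all above and the 8 h libraries all below the control. Polr2a rose by 0.31 at 4 h (SE 0.11, adjusted p = 0.0092), 1.24-fold, and by 0.46 after centring (adjusted p = 1.5e-05). The deposited call was lost without BMH-21 4 h replicate 1 (0.18, adjusted p = 0.15). At 8 h it was -0.38 (adjusted p = 9.2e-04), but -0.18 (adjusted p = 0.11) without BMH-21 8 h replicate 2, -0.17 (adjusted p = 0.052) after centring and 0.29 (adjusted p = 0.0093) with quantile normalization.

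CX-5461 libraries had Polr2a values of 9.88, 9.80 and 9.61 at 2 h, 9.74, 10.02 and 9.87 at 4 h, and 9.87, 9.85 and 9.83 at 8 h. These overlapped the control at each time, and deposited differences of -0.04, 0.07 and 0.04 were not called. After centring the 4 h difference was 0.22 (adjusted p = 0.013) and the 8 h difference was -0.18 (adjusted p = 0.046), the latter 0.23 (adjusted p = 0.040) with quantile normalization. The log2 ratio of Brd2 to Polr2a was lower than in every control library at 4 h, by a mean of 0.50 under BMH-21 and 0.33 under CX-5461. The ratio of Cdk9 to Polr2a was lower there as well, with differences of -0.38 and -0.27. Neither was confined to 4 h. Brd2 to Polr2a was also below every control library at 8 h, with -0.30 under BMH-21 and -0.06 under CX-5461. Cdk9 to Polr2a was so at 2 h of BMH-21, with -0.45.

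On the centred scale the order of the 7 groups differed between the genes. For Ccnt2 the control stood first at 2.12 and apart from the rest, the next 5 groups (1.65 to 1.82) overlapped their neighbours, and 8 h of BMH-21 stood apart at 1.36. For Hexim1, 2 h of BMH-21 stood apart at 3.29, followed by 2 h and 8 h of CX-5461 at 2.97 and 2.91, which overlapped. The other 4 groups, from 2.72 down to 2.59, overlapped their neighbours. For Mepce the BMH-21 groups at 8 and 4 h were lowest (1.25 and 1.24, overlapping), below CX-5461 at 4 and 8 h (1.55 and 1.54, overlapping). For Polr2a, 4 h of BMH-21 stood apart at the top (5.82), and each other group overlapped its neighbour.

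**Figure D4:**
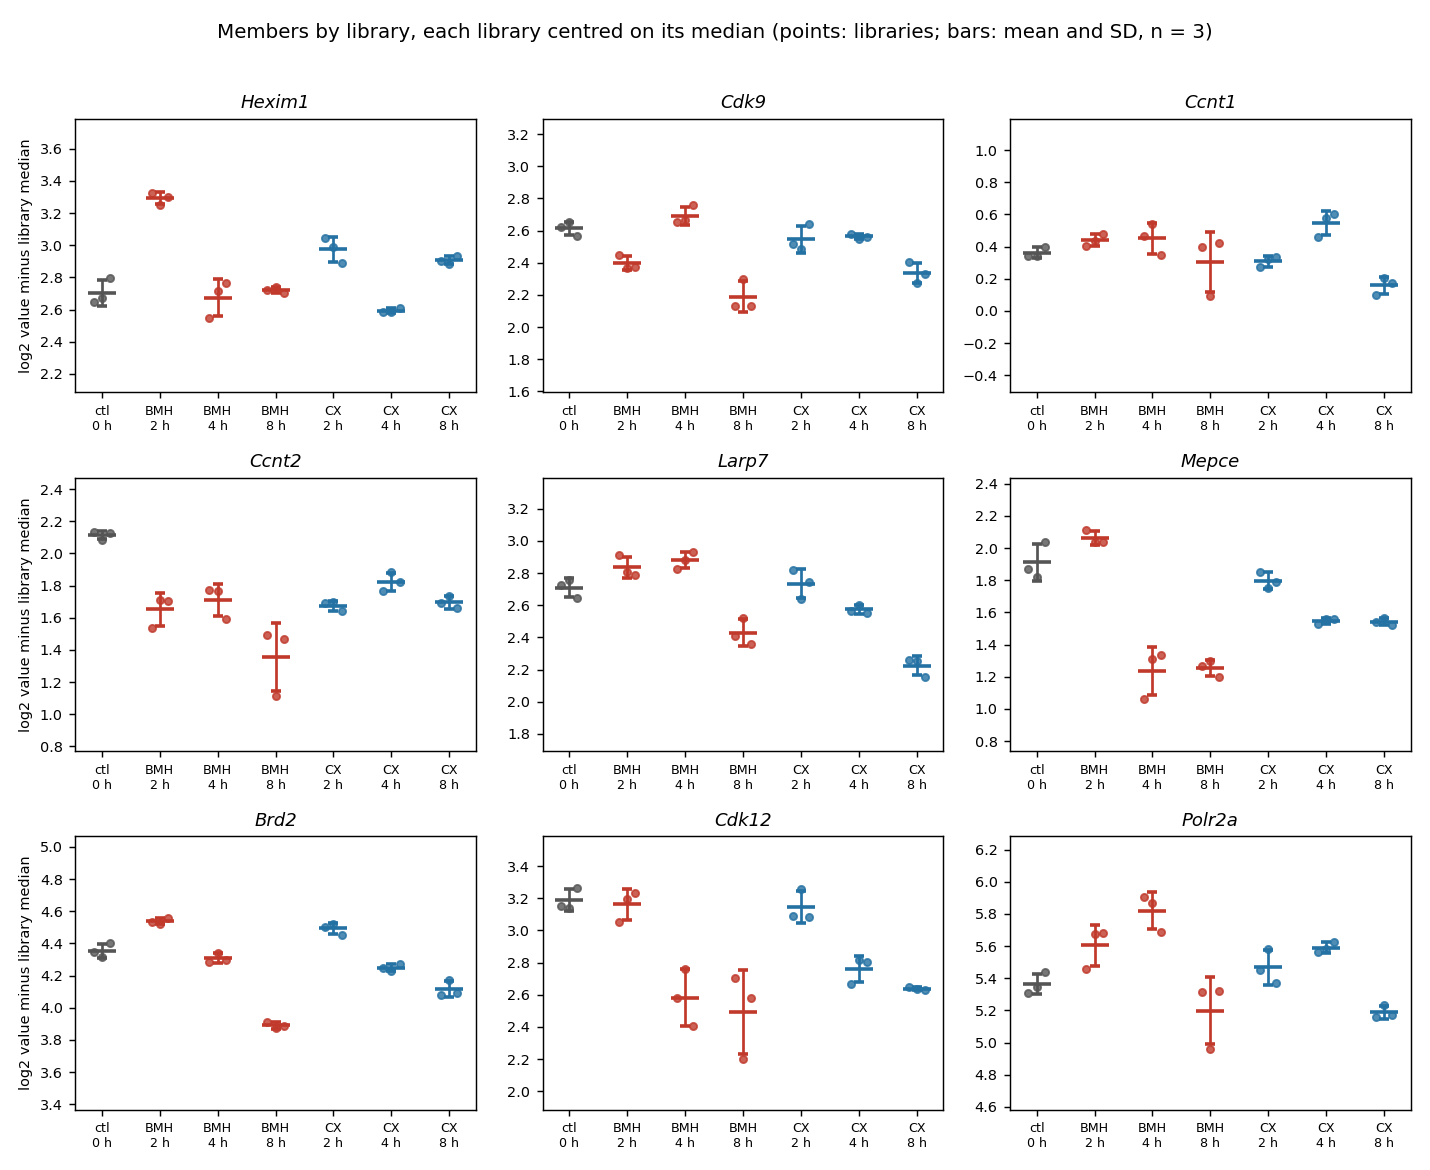
The same 9 genes with each library's median log2 value subtracted (points are libraries, bars are mean and SD, n = 3). The residual SD over the 7 groups is smaller than on the deposited scale for each gene, 0.03 in place of 0.11 for Brd2 and 0.08 in place of 0.10 for Mepce. Some single groups spread more: the SD of Hexim1 in the control is 0.08 in place of 0.02, and that of Mepce at 4 h of BMH-21 is 0.15 in place of 0.03. The 3 control libraries of Ccnt2 stay above all 18 treated libraries.

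BMH-21 and CX-5461 were compared directly at matched dose and time, with 9 genes in each of 3 comparisons and p-values adjusted over all genes in each. At 2 h Hexim1 was the 1 gene called, 0.39 higher with BMH-21 (SE 0.10, adjusted p = 0.012), where 2.47% of all genes were higher with BMH-21 and 1.52% lower. The centred difference was 0.32 (adjusted p = 6.0e-05), with 2 genes higher (Hexim1 and Mepce) and 1 lower (Cdk9), against 7.83% and 7.58% of all genes. The deposited call was lost in 4 of 6 fits without 1 library, and the values ran from 0.32 to 0.49.

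At 4 h Larp7 was 0.32 higher (adjusted p = 0.026) and Mepce was 0.30 lower with BMH-21, a log2 difference of -0.30 (adjusted p = 0.035), beside 9.35% of genes higher and 8.49% lower. Both had the same direction and a call on all 4 scalings. When 1 library was left out the Larp7 call was lost in 4 of 6 fits and the Mepce call in 5 of 6, and neither was called in a fit of these groups alone. Centred values called 3 genes higher (Cdk9, Larp7 and Polr2a) and Mepce lower, against 27.4% and 18.5% of all genes.

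At 8 h all 9 genes were called lower with BMH-21 than with CX-5461 on the deposited scale, and 6 to 8 of them in fits that left out 1 library, where 12.0% of all genes were higher and 67.2% lower and the median of all genes was -0.48. Centring, which removed a shift of -0.43, left 5 genes lower and 1 higher, against 31.1% higher and 40.6% lower. The 5 were Ccnt2 (-0.77 deposited, -0.34 centred), Mepce (-0.71 and -0.29), Brd2 (-0.65 and -0.22), Hexim1 (-0.61 and -0.18) and Cdk9 (-0.57 and -0.15). The deposited call of Larp7 was lost in 6 of 6 such fits (adjusted p from 0.052 to 0.178). Without BMH-21 8 h replicate 2 the calls of Ccnt1 (-0.10, adjusted p = 0.44) and Polr2a (-0.22, adjusted p = 0.055) were lost as well, and Cdk12 went from -0.57 to -0.35 (adjusted p = 0.0031). After centring Larp7 turned from -0.22 (adjusted p = 0.0498) to 0.21 (adjusted p = 8.5e-04), and Polr2a from -0.42 to 0.01 (SE 0.08, adjusted p = 0.92). A missed threshold does not show that the inhibitors act alike on a gene.

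Between 4 and 8 h of BMH-21, 5 genes fell (Cdk9, Ccnt2, Larp7, Brd2 and Polr2a), on the deposited scale and on every other scaling, against 18.6% of all genes higher and 37.8% lower as deposited and 28.3% and 42.2% after centring. Polr2a had the largest fall, -0.69 (adjusted p = 3.1e-08), and Cdk9 had -0.56 (adjusted p = 2.2e-06). Mepce and Cdk12, already low at 4 h, had differences of -0.05 and -0.15 that were not called. Ccnt2 was -0.42 (adjusted p = 0.0014), but -0.22 (adjusted p = 0.098) without BMH-21 8 h replicate 2. Between 4 and 8 h of CX-5461, 4 genes were called higher as deposited (Hexim1, Mepce, Brd2 and Cdk12), beside 58.8% of all genes higher and 4.85% lower. When 1 library was left out, the Brd2 call was lost in 5 of 6 fits (adjusted p from 0.057 to 0.169) and the Cdk12 call in 5 of 6 (adjusted p from 0.057 to 0.297). The count was 5 without CX-5461 4 h replicate 2, and 2 without any of the other 5 libraries. After centring Hexim1 was the 1 higher gene and 5 were lower (Cdk9, Ccnt1, Larp7, Brd2 and Polr2a), against 25.8% and 32.0% of all genes.

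Around these 9 genes, 77 other genes of the elongation machinery were listed in 9 groups, and 76 of them were in the table and tested. At 2 h of BMH-21, 2 were higher and 4 lower on the deposited scale, against 8.48% and 11.2% of all tested genes, and 15 were higher and 7 lower after centring, against 18.6% and 17.5%. At 2 h of CX-5461, 0 were higher and 13 lower as deposited, against 7.45% and 20.5%, and 9 were higher and 10 lower after centring, against 15.8% and 17.8%. The deposited CX-5461 count ran from 4 to 29 when 1 library was left out (6 without control 0 h replicate 1, 4 without control 0 h replicate 2, 29 without control 0 h replicate 3, 28 without CX-5461 2 h replicate 1, 5 without CX-5461 2 h replicate 2, 5 without CX-5461 2 h replicate 3). At 4 h 8 were higher and 39 lower with BMH-21, where 22.1% and 44.9% of all genes were called, and 4 were higher and 58 lower with CX-5461, beside 19.8% and 51.2%. At 8 h the counts were 7 higher and 62 lower with BMH-21, beside 24.5% and 56.9% of all genes. With CX-5461 they were 9 higher and 18 lower, beside 35.1% and 14.3%, and 8 higher and 61 lower after centring, beside 29.3% and 44.7%. The counts of single groups of these genes at 8 h, given next, stand against the same shares of all genes. The median change of the 76 genes at 8 h of BMH-21 was -0.73, beside -0.40 for all genes. At 8 h of CX-5461 it was -0.11, beside 0.11 for all genes.

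Of the other 7SK and BET genes, Hexim2, the paralogue of Hexim1, took another course than Hexim1 at 2 h of BMH-21. With BMH-21 its differences from control at 2, 4 and 8 h were -0.61, -1.60 and -1.17 (adjusted p = 5.2e-05, 2.6e-23 and 2.0e-15), and centred values were -0.54, -1.45 and -0.96. With CX-5461 it was -0.65 and -1.05 at 2 and 4 h and 0.06 (adjusted p = 0.70) at 8 h.

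In the super elongation complex, which carries active P-TEFb, 3 of 10 genes were higher and 5 lower at 8 h of BMH-21, where 56.9% of all genes were lower. Aff4, its scaffold, fell by 1.49 (adjusted p = 1.3e-24), and Mllt1 had -0.69. Ell3 and Aff3 were higher at 8 h of CX-5461, by 0.78 (adjusted p = 2.4e-08) and 0.62 (adjusted p = 4.8e-05). Aff3 was 0.40 after centring, and its call was lost with quantile normalization.

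The pausing factors NELF and DSIF were all lower at 8 h of BMH-21, 6 of 6 beside 56.9% of all genes, with -1.06 for Nelfe and -0.90 for Nelfa, and none was called at 8 h of CX-5461 as deposited while all 6 were lower after centring. Of 11 PAF1 complex and chaperone genes 8 were lower at 8 h of BMH-21, among them Ssrp1 (-1.08), a subunit of the histone chaperone FACT, and Tcea1 (-0.98), the elongation factor TFIIS. Wdr61 was 0.44 higher at 8 h of CX-5461, and 0.22 higher after centring. Of 8 transcriptional kinases and cyclins 7 were lower, with Mnat1 at -1.08 and Cdk8 at -0.98. In CX-5461 cells at 8 h Ccnh was -0.44 and Cdk8 -0.29 (adjusted p = 0.021), and after centring Cdk8 was -0.51.

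Of 12 genes named as other RNA polymerase II subunits, Polr2m among them, 11 were lower at 8 h of BMH-21, again beside 56.9% of all genes lower. Polr2b, singled out after its value was seen, was higher there. Polr2i and Polr2e, at -1.39 and -1.35, changed most, and with CX-5461 they were -0.56 and -0.59. Among genes for phosphatases of the C-terminal domain, Ctdspl was higher by 1.85 at 8 h of BMH-21 (adjusted p = 3.9e-27) and by 1.05 at 8 h of CX-5461 (adjusted p = 4.1e-12), while it was lower at 2 h of both. Rpap2 was -1.77 at 8 h of BMH-21, and Ctdsp2 was -0.44 at 8 h of CX-5461. In the Integrator complex, which cleaves nascent RNA, 12 of 14 genes were lower at 8 h of BMH-21, including Ints6 (-1.38) and Ints5 (-1.17), beside the same 56.9% of all genes. Ints1 was 0.32 higher at 8 h of CX-5461 on the deposited scale and 0.10 higher after centring (adjusted p = 0.033). All 6 termination factors were lower with BMH-21, among them Scaf4 at -1.27, and 5 of 6 with CX-5461, Xrn2 at -0.39 and Scaf8 at -0.35 as deposited, and at -0.60 and -0.56 after centring.

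**Figure D5:**
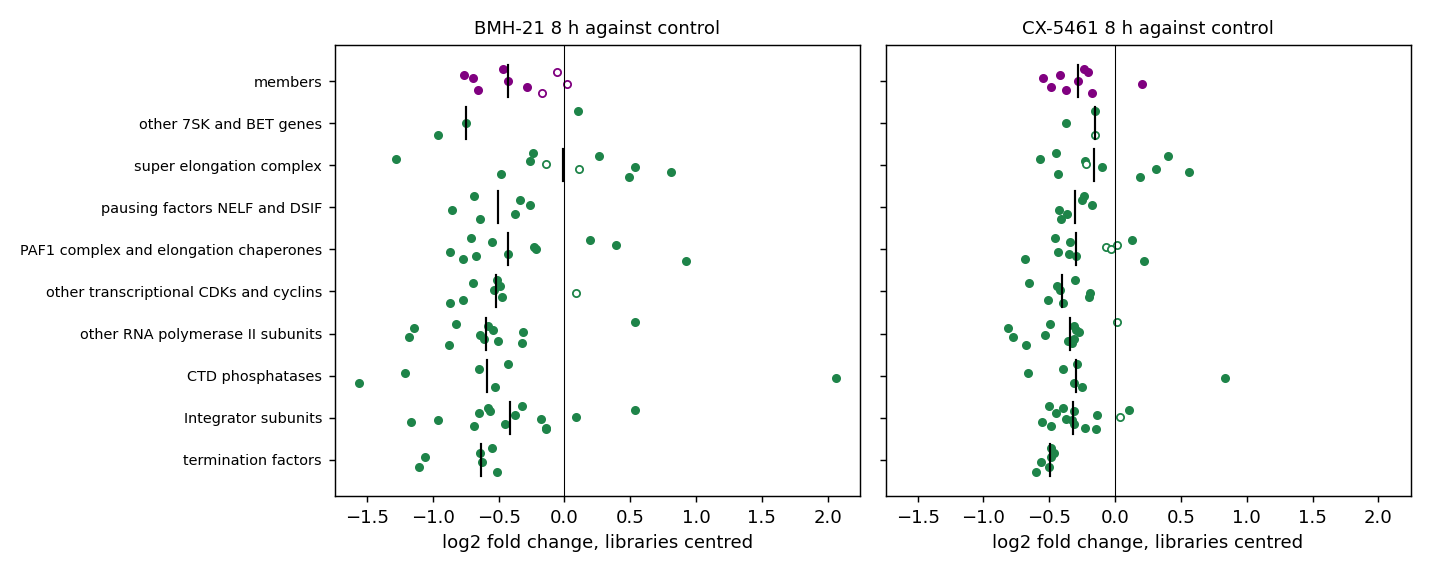
Log2 fold change at 8 h against the control after centring, for the 9 genes (top line, labelled members) and the genes of 9 wider groups, with filled symbols for an adjusted p under 0.05 and a vertical bar at each group's median. Most symbols lie below 0 in both panels, and Ctdspl stands out at 2.06 with BMH-21.

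The genes most like a member in their 7 deposited group means, each centred on its own mean, were sought for the 3 members with the widest span of means, among 9779 genes with a mean of at least 3. For Ccnt2 (span 0.97) these were Zfp236, Macf1 and Ccdc71, with root mean square differences of 0.071, 0.077 and 0.079 (log2). For Mepce (span 0.94) they were Mex3d, Aste1 and Tor1aip1, at 0.075, 0.085 and 0.090. For Cdk12 (span 0.90) they were Kdm2a, Zbtb44 and Rpusd4, at 0.043, 0.047 and 0.051. The points share their libraries and the deposited scaling.

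The summed levels of markers of other cell types were higher at 8 h than in the control, though a few genes carried most of a sum. The summed level of 6 trophectoderm markers was 71.5 to 75.0 CPM in the control, 224 to 227 at 8 h of BMH-21 and 132 to 150 at 8 h of CX-5461. That of 8 fibroblast markers was 30.4 to 32.0 in the control and 55.3 to 60.8 at 8 h of BMH-21, and that of 7 primitive endoderm markers was 16.5 to 17.7 and 25.4 to 27.2. The part of these changes in the results for the 9 genes was not tested. In bulk RNA, fewer cells of a type and less RNA per cell cannot be told apart.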

How the data were processed

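Poly(A) RNA of 21 libraries (7 groups of 3) was sequenced with a strand-specific kit, per the labels' protocols. The authors deposited log2 values per gene, which from the values are log2 CPM after a scaling factor per library. Whole reads were recovered from them, the largest deviation from a whole number being 1.7e-08. The submitters' processing notes name the mm10 build, Trim Galore 0.5.0, TopHat2 2.1.1, DESeq2 1.30.1, edgeR 3.32.1 and limma 3.46.0, with no roles.

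Here the deposited log2 values were fitted with limma 3.58.1 (R 4.3.3), all 7 groups in 1 model, with a mean-variance trend. The SD used in each test was drawn toward that trend, with 111.5 prior beside 14 residual degrees of freedom (8.5 prior after centring). It was 0.14, 0.14, 0.14 and 0.13 for Ccnt1, Ccnt2, Cdk12 and Polr2a, whose own SDs were 0.17, 0.19, 0.20 and 0.19. Their deposited p-values are thus smaller than their own spread would give. The other members had own SDs below the SD used. Genes above log2 0 in at least 3 libraries were tested (14666), and p-values were adjusted by Benjamini-Hochberg within each of 11 comparisons. No count model was the main test, and weights on the recovered reads (offset 0.5) were an alternative. On simulated data for 1 comparison 181 of 200 changed genes were recovered among 190 calls. At a simulated log2 change of 0.5, 56 of 74 were recovered. The simulation held no error in the scaling of libraries and gave every gene the same SD before counting error. The own SDs of the 9 genes ran from 0.10 (Mepce) to 0.20 (Cdk12), so the simulation tests neither limit. Named were all 9 members and, in each wider list and 8 h comparison with control, the 2 genes with the largest change among those called whose libraries did not overlap. For the 3 members with the widest span of group means, the 3 most alike genes were named. Some genes that this rule names are not reported here. The members and lists were chosen with earlier results of these data known. Figures were drawn with matplotlib 3.10.9.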

Additional observations from a re-analysis of the deposited data

Results flagged for a closer look

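The difference between BMH-21 and CX-5461 was itself tested at matched times (limma, adjusted over all genes), and 12 values for the 9 genes passed the threshold on the deposited scale. At 2 h Hexim1 was 0.39 higher with BMH-21 (adjusted p = 0.012), where 2.47% of all genes were higher and 1.52% lower. At 4 h, beside 9.35% of all genes higher and 8.49% lower, Larp7 was 0.32 higher (adjusted p = 0.026). Mepce had a difference of -0.30 (adjusted p = 0.035). These 3 differences were 0.32, 0.31 and -0.31 after centring.

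At 8 h all 9 genes were called lower with BMH-21 on the deposited scale. So were 67.2% of all genes, and the median of all genes was -0.48. The Larp7 call was lost whichever library was left out (6 of 6 fits), and without BMH-21 8 h replicate 2 those of Ccnt1 (-0.10, adjusted p = 0.44) and Polr2a (-0.22, adjusted p = 0.055) were lost too, with Cdk12 at -0.35. After centring Ccnt2 went from -0.77 to -0.34, Mepce from -0.71 to -0.29, Brd2 from -0.65 to -0.22, Hexim1 from -0.61 to -0.18 and Cdk9 from -0.57 to -0.15, and these 5 remained called. Cdk12 went from -0.57 to -0.14 (adjusted p = 0.17), Polr2a from -0.42 to 0.01 (adjusted p = 0.92) and Ccnt1 from -0.28 to 0.14 (adjusted p = 0.059). Larp7 went from -0.22 to 0.21 (adjusted p = 8.5e-04), a change of sign. On the centred scale 31.1% of all genes were higher and 40.6% lower.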

How the results depend on the processing

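Of the results for the 9 genes under the alternatives that kept all libraries, 925 kept their direction and side of the threshold, 33 lost the call, 56 gained one and 75 changed sign, all of the last under another scaling. Centring turned 20 log2 changes, and these values are given by comparison. BMH-21 4 h against control gave Cdk9 0.077, Ccnt1 0.088. BMH-21 8 h against control gave Hexim1 0.018. CX-5461 2 h against control gave Larp7 0.025, Brd2 0.14, Polr2a 0.10. CX-5461 8 h against control gave Ccnt1 -0.20, Polr2a -0.18. BMH-21 2 h against CX-5461 2 h gave Ccnt2 -0.024. BMH-21 8 h against CX-5461 8 h gave Ccnt1 0.14, Larp7 0.21, Polr2a 0.0099. BMH-21 8 h against 4 h gave Hexim1 0.048, Mepce 0.017. CX-5461 8 h against 4 h gave Cdk9 -0.23, Ccnt2 -0.13, Larp7 -0.35, Mepce -0.0065, Brd2 -0.13, Cdk12 -0.12. Median-ratio factors turned 24 log2 changes, and these values are given by comparison. For BMH-21 4 h against control the values were Hexim1 0.0031, Cdk9 0.11, Ccnt1 0.12. For BMH-21 8 h against control the values were Hexim1 0.16, Ccnt1 0.086. For CX-5461 2 h against control the values were Larp7 0.061, Brd2 0.18, Polr2a 0.14. For CX-5461 4 h against control the values were Cdk9 0.041. For CX-5461 8 h against control the values were Ccnt1 -0.10, Polr2a -0.077. For BMH-21 2 h against CX-5461 2 h the values were Ccnt2 -0.053, Cdk12 -0.011. For BMH-21 8 h against CX-5461 8 h the values were Ccnt1 0.19, Larp7 0.25, Polr2a 0.055. For BMH-21 8 h against 4 h the values were Hexim1 0.16, Mepce 0.13, Cdk12 0.026. For CX-5461 8 h against 4 h the values were Cdk9 -0.22, Ccnt2 -0.12, Larp7 -0.34, Brd2 -0.13, Cdk12 -0.11. Quantile normalization turned 31 log2 changes, and these values are given by comparison. The values of BMH-21 4 h against control became Hexim1 0.048, Cdk9 0.15, Ccnt1 0.11, Brd2 0.11. The values of BMH-21 8 h against control became Hexim1 0.31, Brd2 0.017, Polr2a 0.29. The values of CX-5461 2 h against control became Larp7 0.052, Brd2 0.17, Polr2a 0.13. The values of CX-5461 4 h against control became Hexim1 0.064, Cdk9 0.13, Larp7 0.044, Brd2 0.17. The values of CX-5461 8 h against control became Ccnt1 -0.17, Brd2 0.20. The values of BMH-21 2 h against CX-5461 2 h became Ccnt2 -0.041, Brd2 -0.0047, Cdk12 -0.016. The values of BMH-21 4 h against CX-5461 4 h became Hexim1 -0.016, Brd2 -0.067. The values of BMH-21 8 h against CX-5461 8 h became Ccnt1 0.16, Larp7 0.22, Polr2a 0.056. The values of BMH-21 8 h against 4 h became Hexim1 0.27, Mepce 0.10, Cdk12 0.12. The values of CX-5461 8 h against 4 h became Cdk9 -0.15, Ccnt2 -0.083, Larp7 -0.27, Cdk12 -0.016.

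The shares of all genes called moved with the scaling as well. From deposited to centred values they went from 8.48% higher and 11.2% lower to 18.6% and 17.5% at 2 h of BMH-21. At 8 h of CX-5461 they went from 35.1% and 14.3% to 29.3% and 44.7%. Under the other alternatives these shares were not computed, so the counts there are not set against a background. Counts of the 9 genes called, both directions together, moved most in proportion as follows. At 2 h of BMH-21 the count of 3 became 6 with centring and 7 with median-ratio factors, and at 4 h the count of 4 became 7 with quantile normalization. At 2 h of CX-5461 the count of 1 became 2 with no filter and 3 under each other scaling, and at 8 h the count of 3 became 9 with centring, 7 with median-ratio factors and 8 with quantile normalization. BMH-21 against CX-5461 at 2 h went from 1 to 2 with no filter or a robust prior and to 3 under each other scaling. At 4 h it went from 2 to 4 with centring or quantile normalization, to 0 in a fit of those groups alone and to 1 without a mean-variance trend. CX-5461 at 8 h against 4 h went from 4 to 2 with no filter. For the 76 wider genes, 2 h of BMH-21 went from 6 to 22 under each other scaling, 2 h of CX-5461 from 13 to 8 with no filter and 6 without a trend, and 8 h of CX-5461 from 27 to 69, 66 and 52 with centring, median-ratio factors and quantile normalization and to 42 in a fit of those groups alone. A total not listed could still hold a change of direction. At 4 h of CX-5461, 0 higher and 6 lower became 4 and 2 with quantile normalization. At 8 h of BMH-21, 0 and 8 became 2 and 4 with it. CX-5461 at 8 h against 4 h went from 4 and 0 to 1 and 5 with centring or median-ratio factors. For the wider genes at 4 h of CX-5461, 4 higher and 58 lower became 15 and 36 with quantile normalization. The cause was not tested.

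Leaving out 1 library at a time, the count of the 9 genes called ranged from 2 to 3 (BMH-21 2 h), 4 to 4 (BMH-21 4 h), 6 to 8 (BMH-21 8 h), 1 to 2 (CX-5461 2 h), 3 to 7 (CX-5461 4 h), 2 to 3 (CX-5461 8 h), 0 to 2 (BMH-21 2 h against CX-5461 2 h), 0 to 2 (BMH-21 4 h against CX-5461 4 h), 6 to 8 (BMH-21 8 h against CX-5461 8 h), 4 to 7 (BMH-21 8 h against 4 h), 2 to 5 (CX-5461 8 h against 4 h). For the wider genes it ranged from 4 to 6 (BMH-21 2 h), 43 to 55 (BMH-21 4 h), 67 to 69 (BMH-21 8 h), 4 to 29 (CX-5461 2 h), 50 to 64 (CX-5461 4 h), 18 to 27 (CX-5461 8 h). The share of all genes called was not computed in these fits, so the ranges have no background beside them. A change of sign occurred in such fits for 20 log2 changes, none of them called in the fit of all libraries, over these ranges. In BMH-21 2 h against control these were Ccnt1 -0.049 to 0.079, Larp7 -0.037 to 0.10, Cdk12 -0.17 to 0.013. In BMH-21 4 h against control these were Ccnt1 -0.15 to 0.025, Larp7 -0.064 to 0.073. In CX-5461 2 h against control these were Brd2 -0.080 to 0.042, Polr2a -0.10 to 0.033. In CX-5461 4 h against control these were Ccnt1 -0.070 to 0.12, Polr2a -0.0074 to 0.14. In CX-5461 8 h against control these were Ccnt1 -0.024 to 0.031, Brd2 -0.054 to 0.0003. In BMH-21 2 h against CX-5461 2 h these were Ccnt2 -0.036 to 0.16. In BMH-21 4 h against CX-5461 4 h these were Ccnt1 -0.18 to 0.0084, Ccnt2 -0.21 to 0.0038. In BMH-21 8 h against 4 h these were Hexim1 -0.052 to 0.050, Mepce -0.087 to 0.0058, Cdk12 -0.29 to 0.072. In CX-5461 8 h against 4 h these were Ccnt1 -0.11 to 0.082, Larp7 -0.036 to 0.12, Polr2a -0.097 to 0.046.

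Replicate numbers did not pair the libraries. Over 63 pairs of same-numbered libraries the correlation of deviations from the group means ran from -0.25 to 0.11, and 1 was over 0.1. Over 126 pairs with other numbers it ran from -0.26 to 0.38, and 14 were over 0.1. Whether libraries of different groups shared a batch was not tested. With the replicate number as a block the counts of the 9 genes called were 3 (BMH-21 2 h), 4 (BMH-21 4 h), 8 (BMH-21 8 h), 1 (CX-5461 2 h), 6 (CX-5461 4 h), 3 (CX-5461 8 h), 1 (BMH-21 2 h against CX-5461 2 h), 2 (BMH-21 4 h against CX-5461 4 h), 8 (BMH-21 8 h against CX-5461 8 h), 5 (BMH-21 8 h against 4 h), 3 (CX-5461 8 h against 4 h), and the block ended 2 calls, Larp7 at 8 h of BMH-21 against CX-5461 (adjusted p = 0.058) and Cdk12 at 8 h against 4 h of CX-5461 (adjusted p = 0.055).

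The deposited scaling factors are the main limit: their origin is not given in the sources used here, and they shift all genes of a group together. Each group held 3 libraries. BMH-21 8 h replicate 2 stood apart, and leaving it out ended the calls named beside the results. The table holds 1 value per gene symbol and library, so isoforms were not separated.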
